A study of Mus musculus with 16 samples.

Results

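The 200 loci described here are the most abundant of the 939 rows of the kidney gene table whose symbol is Gm37 followed by 3 digits. They were chosen by their count summed over 16 libraries, out of 57186 genes in all, and this ranking made no use of the groups. Earlier results of these data were known when the loci were chosen, so their contrast with all genes is not independent evidence. The summed count ran from 550 to 19455 with a median of 1368.5, and the 200 loci held 89.7% of the counts of all Gm37 rows, of which 315 were at 0. At the lower edge stood Gm37784 (566), Gm37855 (557) and Gm37062 (550), and just outside it Gm37809 (532), Gm37988 (524) and Gm37873 (517).

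Symbols of this kind name gene models that annotators placed on the mouse genome without a known function. Most carry the class TEC, for loci that await experimental proof, which is given to unspliced transcript clusters that have features of polyadenylation. When such a locus lies inside an intron, reads of the unspliced precursor of the surrounding gene fall on it too. Unspliced precursors, and long noncoding RNAs such as Malat1 and Neat1, stay in the nucleus, whereas mature mRNAs are exported to the cytoplasm.

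The study asked how a high oral dose of vitamin B12 changes the early diabetic kidney. Whole-kidney RNA came from 16 male mice on a C57BL/6J background, all homozygous for Elmo1H, an allele that raises expression of the engulfment gene Elmo1, and diabetic mice also carried the Akita variant of Ins2, whose misfolded insulin damages pancreatic beta cells. The 4 labelled groups hold 4 libraries each and are ND_C (Elmo1H/H Ins2+/+, no B12), ND_B12 (Elmo1H/H Ins2+/+, B12), D_C (Elmo1H/H Ins2Akita/+, no B12) and D_B12 (Elmo1H/H Ins2Akita/+, B12), with B12 given in drinking water at 10 mg per kg body weight and day from 8 weeks of age. Treatment lasted 16 weeks by the labels and 8 weeks by the study's methods, which place the kidneys at 16 weeks of age.

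Group names and directions below are those of the labels. The group means published with the study lie closest to other sets of 4 libraries than the labelled ones, and for the untreated diabetic group that set is the 4 libraries labelled D_B12. For the B12-treated diabetic group it is ND_B12 4 with D_C 2, 3 and 4, so it shares 0 libraries with its label. For ND_C the closest set is ND_C 1, 2 and 4 with ND_B12 1. For ND_B12 it is ND_C 3, ND_B12 2 and 3 and D_C 1. Thus D_C 1 and ND_B12 4, which stand apart below, lie in sets of other groups than their labels. If the diabetic labels are exchanged, each direction given between D_B12 and D_C turns, the interaction and the order of group means change, and comparisons of a diabetic with a non-diabetic group hold other libraries. If the non-diabetic sets differ too, ND_B12 against ND_C also holds other libraries. Library totals ran from 65271308 to 91771136 counts. Each library name also holds a date, which the labels do not explain. No date is shared by D_B12 and any other group, so date and group cannot be told apart there. Elmo1 averaged between 331 and 388 normalized counts per group. It is raised in all 4 groups by design, and the Akita variant cannot be checked from a gene's level. Proximal tubule markers were present in all libraries. Their summed normalized counts lay between 2200000 and 2470000 in ND_C, 1860000 and 2390000 in ND_B12, 1650000 and 1920000 in D_B12, and 1470000 and 1950000 in D_C. The sum for the thick ascending limb markers Umod and Slc12a1 was 166000 to 198000 in D_B12 against 224000 to 305000 in D_C and 191000 to 291000 in ND_B12, and its part in the results was not tested. In whole-kidney RNA, fewer cells of a type and less RNA per cell cannot be told apart.

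Of the 200 loci, 197 were found in the GENCODE vM39 annotation of GRCm39, the build of the files. They were 174 TEC, 18 lncRNA, 4 processed pseudogenes and 1 protein-coding model, Gm37240. A single exon made up 179 of them and 18 had more, so the description as unspliced held for most but not all. Their length ran from 189 to 8163 bases with a median of 2573. Of the 200, 96 lie on chromosome 1, 27 on chromosome 9 and 24 on chromosome 3.

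By position, 134 lay in an intron of a named gene on the same strand, with 100 different host genes, and only 1 of these touched another transcript of its host. A further 19 lay in an intron on the opposite strand, 18 overlapped an exon on the opposite strand, 6 overlapped an exon on their own strand, 3 lay downstream of a gene and 17 had no named gene at their position. Several hosts held more than 1 of the loci, with 4 each at Dennd1b, Tcf12, Mir99ahg and Ppp2r3a, so the loci are not independent of each other. The study's methods say that strand was assigned at alignment from intron motifs, and do not say whether reads were counted by strand. Counts at loci opposite a gene are therefore uncertain.

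The sequence at the annotated 3′ end shows how these loci differ from ordinary mRNA genes. Shown are the last 60 bases of a locus and the 20 bases that follow, read 5′ to 3′ on the strand of the locus in GRCm39, with AATAAA or ATTAAA, the common poly(A) signals, in capitals where one lies in the last 50 bases. Gm37738 (chr1:84797669-84797748, minus strand, in an intron of Trip12) and Gm37254 (chr1:186972495-186972574, plus strand, in an intron of Gpatch2) hold a signal. Gm37033 (chr1:180192504-180192583, plus strand, intron of Itpkb), Gm37101 (chr1:138495415-138495494, minus strand, intron of Nek7), Gm37159 (chr2:68725255-68725334, plus strand, intron of Cers6) and Gm37795 (chr4:150155395-150155474, plus strand, no named gene) hold none, and the 20 bases after them are rich in A.
Gm37738: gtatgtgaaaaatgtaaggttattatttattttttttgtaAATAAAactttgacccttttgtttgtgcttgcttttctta
Gm37254: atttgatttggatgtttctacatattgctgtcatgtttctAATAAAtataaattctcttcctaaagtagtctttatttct
Gm37033: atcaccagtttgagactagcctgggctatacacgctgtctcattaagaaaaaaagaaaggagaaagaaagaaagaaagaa
Gm37101: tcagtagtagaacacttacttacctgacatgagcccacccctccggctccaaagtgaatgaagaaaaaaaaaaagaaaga
Gm37159: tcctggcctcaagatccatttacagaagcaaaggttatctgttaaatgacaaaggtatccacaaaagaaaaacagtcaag
Gm37795: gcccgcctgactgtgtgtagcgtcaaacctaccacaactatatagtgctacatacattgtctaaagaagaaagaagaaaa

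AATAAA or ATTAAA was found in the last 50 bases of 53 of 197 loci (26.9%) on the sense strand and of 11 (5.6%) on the opposite strand, and each motif can lie within a longer run of A and T. Among the 1508 other TEC loci tested the sense share was 29.8%, and among 15877 protein-coding genes it was 73.2%. At least 12 of the 20 bases after the end were A in 99 loci (50.3%), in 46.6% of the other TEC loci and in 5.4% of the protein-coding genes. The median number of A was 12, 11 and 4. The 200 loci were therefore close to other TEC loci at their ends and far from protein-coding genes, as a description of the annotation with no test.

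**Figure D1:**
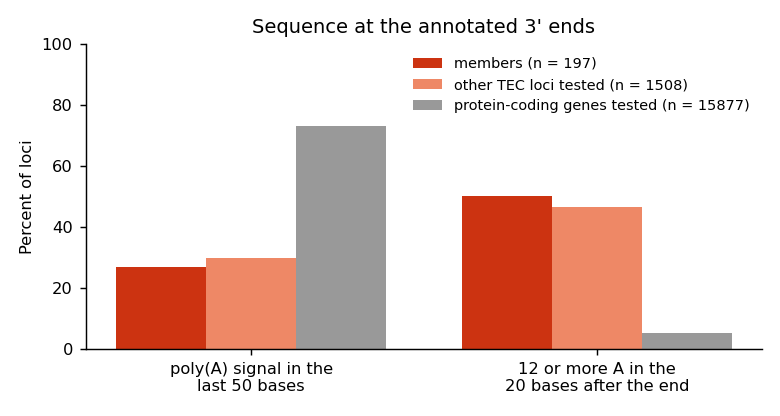
Percent of loci (vertical axis) with AATAAA or ATTAAA in the last 50 bases, and with at least 12 A in the 20 bases after the end, for the 197 annotated loci (red), the other TEC loci tested (orange) and the protein-coding genes tested (grey). A poly(A) signal was found in 26.9% of the loci and 73.2% of the protein-coding genes, and an A-rich stretch followed 50.3% and 5.4%.

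The loci were a small part of each library. Summed over the 200, their share of all counts was 0.0358%, 0.034%, 0.0275% and 0.0302% in ND_C 1 to 4 and 0.0269%, 0.0274%, 0.0293% and 0.0218% in ND_B12 1 to 4. It was 0.0391%, 0.0296%, 0.0268% and 0.0259% in D_C 1 to 4 and 0.0383%, 0.0327%, 0.0359% and 0.0396% in D_B12 1 to 4. Each D_B12 library thus stood above each ND_B12 library, while the D_C libraries split into 1 high library and 3 low ones. The order of the means was D_B12 (0.0366% ± 0.00302), ND_C (0.0319% ± 0.00371), D_C (0.0303% ± 0.00605) and ND_B12 (0.0263% ± 0.0032, SD, n = 4 each), and each neighbouring pair in this order overlapped.

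Single libraries held many of the extreme values, and the counts of loci past the thresholds given below depended on them. ND_B12 4 held the lowest value of 68 of the 200 loci and D_B12 4 the highest of 47. Between libraries, the median deviation of the 200 loci from their own mean ran from -0.50 in ND_B12 4 to 0.38 in D_B12 4 on the log2 scale, where the median over all genes stayed between 0 and 0.02. D_C 1 stood at 0.26, and D_C 2, 3 and 4 at -0.06, -0.19 and -0.26. The summed markers of the principal cell of the collecting duct (Aqp2, Aqp3 and Scnn1g) differed between the same libraries. They held 17763 normalized counts in D_C 1 and 28930 to 38618 in D_C 2 to 4, were highest of their group in ND_B12 4 (24553 against 12657 to 17830) and lowest of theirs in D_B12 4 (14956 against 19392 to 30550.4). Each D_C library was above each ND_C library (11600 to 15600). None of the 3 markers was at 0, and their part in the results was not tested. On the dates that hold libraries of more than 1 group, ND_C 4 (0.0302%) stood above ND_B12 1 (0.0269%), and D_C 1 (0.0391%) stood above ND_B12 2, 3 and 4 (0.0218% to 0.0293%).

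**Figure D2:**
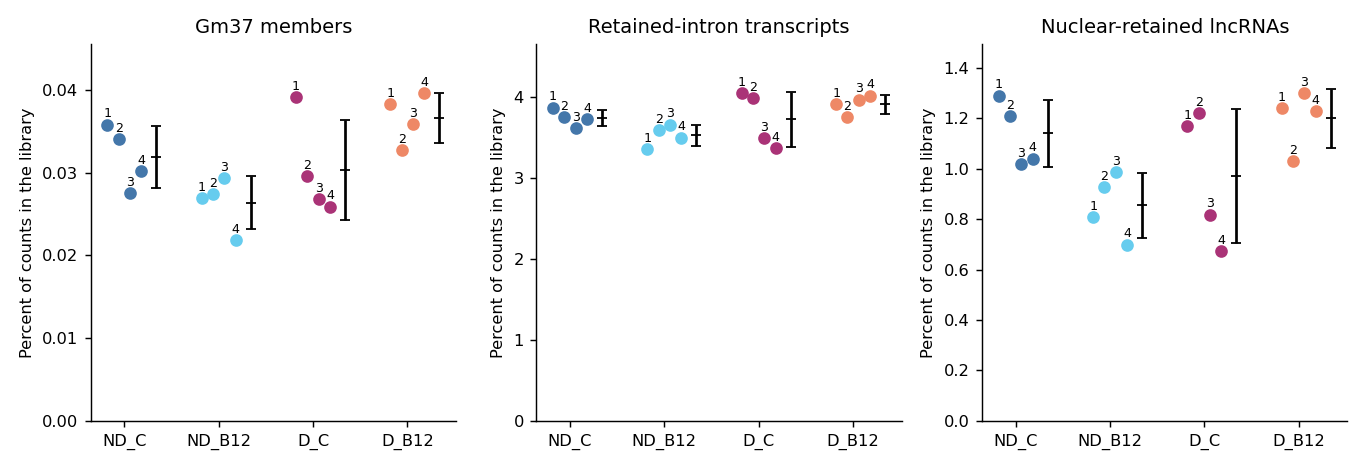
Percent of all counts of a library (vertical axes) taken by the 200 Gm37 loci, by transcripts annotated as retained_intron and by the nuclear-retained long noncoding RNAs, with a point per library, its number above it and the mean ± SD beside each group of 4. The D_B12 points lie above the ND_B12 points in all 3 panels, and D_C 1 lies apart from D_C 3 and 4.

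Other classes of RNA that keep to the nucleus or hold introns were read in the same libraries. Transcripts annotated as retained_intron took 3.91% ± 0.116 of the counts in D_B12 and 3.53% ± 0.131 in ND_B12, with no overlap (exact permutation test, two-sided, p = 0.0286, the smallest that 4 against 4 libraries allow, adjusted p = 0.0762 over 16 tests). D_C, at 3.73% ± 0.345, overlapped D_B12 (exact permutation p = 0.4, adjusted p = 0.492). The nuclear-retained long noncoding RNAs, mostly Malat1, took 1.2% ± 0.119 in D_B12, 0.855% ± 0.128 in ND_B12, 0.971% ± 0.266 in D_C and 1.14% ± 0.132 in ND_C. For them D_B12 was above ND_B12 and ND_B12 below ND_C, each with no overlap and the same p and adjusted p by the exact permutation test. Other TEC loci took 0.176% ± 0.0147 in D_B12 and 0.132% ± 0.0144 in ND_B12, again with no overlap and the same exact permutation p, but D_C, at 0.149% ± 0.0311, overlapped D_B12 (exact permutation p = 0.171, adjusted p = 0.274). Transcripts of the mitochondrial genome, which are not nuclear, took 12.7% ± 0.315 in D_B12, 10.7% ± 1.6 in D_C, 11.1% ± 0.421 in ND_B12 and 11.5% ± 0.503 in ND_C, and D_B12 was above both D_C and ND_B12 with no overlap. Within D_C they took 8.35% in D_C 3 and 11.4% to 11.8% in D_C 1, 2 and 4. All 16 adjusted values were at or above 0.0762.

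Between B12-treated diabetic and B12-treated non-diabetic kidneys (D_B12 and ND_B12), 190 of the 200 loci had a log2 fold change above 0, with a median of 0.48 against 0.003 over all 25408 genes tested. By edgeR's quasi-likelihood test 5 loci rose at an adjusted p below 0.05, which is 2.5%, where 0.823% of all genes were called. At an unadjusted p below 0.05, 87 were higher (43.5%, against 7.79% of all genes) and 1 lower (0.5%, against 9.2%). With a log2 fold change of 0.5 or more in size as well, 77 remained, all higher, where 7.47% of all genes passed in either direction and 5.31% were higher. Normalized counts (raw counts over DESeq2 size factors) did not overlap between the groups for 55 loci that were higher (27.5%, against 5.1% of all genes) and 1 that was lower (0.5%, against 6.57%). Of the 1508 other TEC loci tested, 26.7% were higher at an unadjusted p below 0.05, 83.1% had a log2 fold change above 0, 17 passed the adjusted threshold and the median was 0.42. The difference from the 200 loci (43.5% higher, 95% above 0) was not tested.

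**Figure D3:**
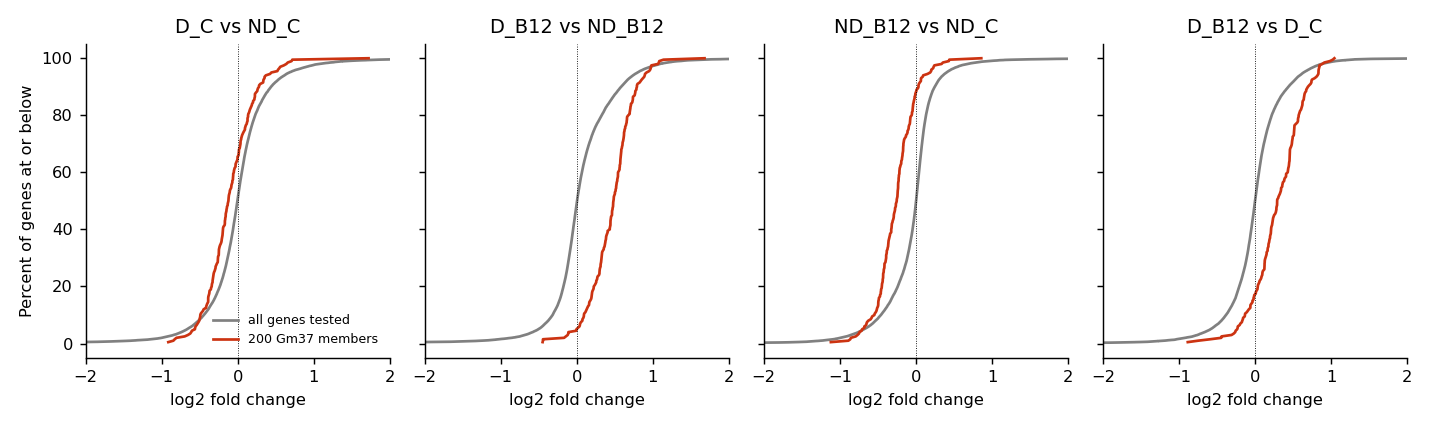
Cumulative percent of genes (vertical axis) at or below a log2 fold change (horizontal axis, drawn from -2 to 2) for the 200 Gm37 loci (red) and all 25408 genes tested (grey) in 4 comparisons. The red curve lies to the right for D_B12 against ND_B12 (median 0.48) and D_B12 against D_C (0.29), and to the left for ND_B12 against ND_C (-0.25) and D_C against ND_C (-0.12), where all genes have a median near 0.

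The locus that rose most was Gm37795, a TEC locus of 1 exon at chr4:150152996-150155454 on the plus strand with no named gene at its position. Its normalized count was 76.4, 69.5, 79.6 and 117 in ND_B12 and 383, 218, 269 and 232 in D_B12. Every D_B12 library was above every ND_B12 library, and above the D_C libraries too, which held 119, 118, 166 and 141. The log2 fold change over ND_B12 was 1.68 (SE 0.27, edgeR adjusted p = 0.0235, 8.42e-07 to 0.137 over the alternatives).

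Gm37159 lies at chr2:68721710-68725314 in an intron of Cers6, which encodes a ceramide synthase. It held 66.6, 94.3, 79.6 and 55.1 normalized counts in ND_B12 and 126, 165, 149 and 188 in D_B12, with no overlap. Its log2 fold change came to 1.08 (SE 0.22, edgeR adjusted p = 0.0418, 0.00104 to 0.277 over the alternatives), while Cers6 itself gave -0.05 (SE 0.09). All 3 of the loci inside Cers6 lay between 0.58 and 1.08.

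Gm37906 (chr1:30904585-30907619, minus strand) lies in an intron of Phf3, which encodes a protein that binds RNA polymerase II. Normalized counts were 182, 145, 184 and 152 in ND_B12 and 243, 252, 273 and 309.7 in D_B12, so the groups did not overlap. The log2 fold change came to 0.70 (SE 0.15, edgeR adjusted p = 0.0458, 0.00165 to 0.285 over the alternatives), and that of Phf3 was 0.05 (SE 0.0764).

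Gm37008 (chr7:92286391-92287469, plus strand) and Gm37094 (chr14:69733300-69737839, minus strand) have no named gene at their position. Gm37008 held 149.6, 167, 158 and 139 normalized counts in ND_B12 and 213, 239, 216 and 249 in D_B12. Its change was 0.58 (SE 0.12, edgeR adjusted p = 0.0418, 0.0016 to 0.204 over the alternatives), and its ND_C libraries, at 186 to 213, also lay above the ND_B12 libraries. Gm37094 held 141, 123, 155 and 108 in ND_B12 and 279.9, 209, 284 and 207 in D_B12, a change of 0.89 (SE 0.2, edgeR adjusted p = 0.0482, 0.00167 to 0.161 over the alternatives). Neither locus had a poly(A) signal in its last 50 bases or an A-rich stretch after its end.

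**Figure D4:**
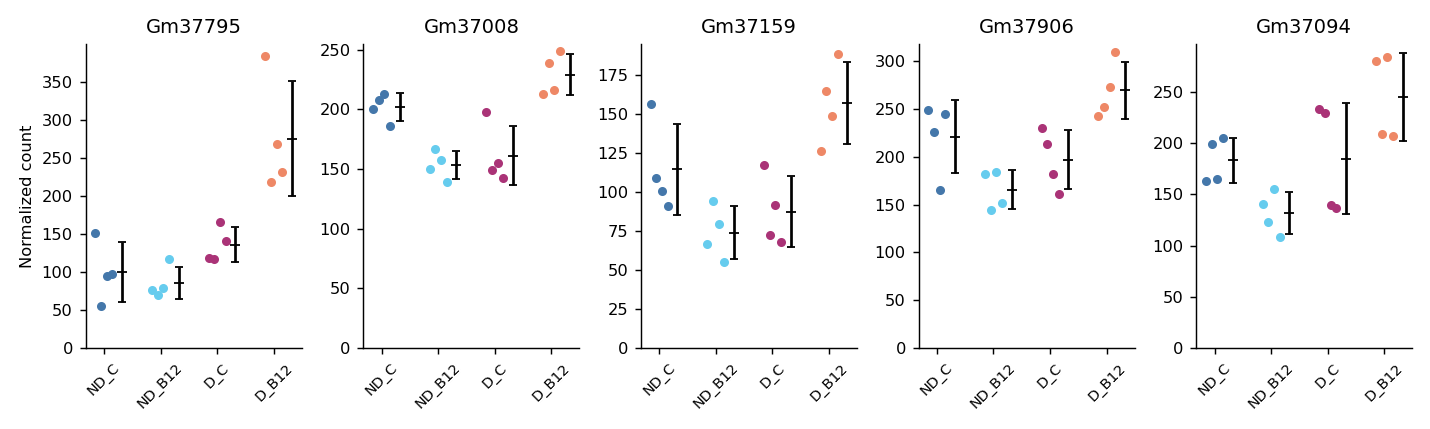
Normalized counts (vertical axes, each from 0) of the 5 loci that passed the adjusted threshold between D_B12 and ND_B12, with a point for each of the 4 libraries of a group in order and the mean ± SD beside them. In each panel the D_B12 points lie above all ND_B12 points.

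Further loci in this comparison missed the adjusted threshold. Gm37485, in an intron of the exoribonuclease gene Dis3l2, gave 1.14 (SE 0.33, edgeR adjusted p = 0.101). Gm37844, which lies opposite an exon of Kbtbd11, was the 1 locus lower at an unadjusted p below 0.05, with 190 ± 31.9 normalized counts in D_B12 and 258 ± 32.5 in ND_B12 (log2 fold change -0.45, SE 0.21, edgeR adjusted p = 0.279). Leaving out ND_B12 4 cut the 77 loci past both thresholds to 42, where 7.39% of all genes passed, and the median to 0.40. With any 1 library of either group left out, at most 1 locus passed the adjusted threshold (0% to 1.04% of all genes). In the fit with the label date no locus passed the adjusted threshold (0.114% of all genes did), while the median was higher, at 0.75.

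Between B12-treated and untreated diabetic kidneys (D_B12 and D_C), 166 of the 200 loci had a log2 fold change above 0. Their median was 0.29 (0.254 over other TEC loci). None passed the adjusted threshold in edgeR, as for all genes (0%), and the smallest adjusted p was 0.0703. DESeq2 called 12, where it called 2.64% of all genes. At an unadjusted p below 0.05, 57 loci were higher (28.5%, against 6.44% of all genes and 16.8% of other TEC loci). Lower were 2 (1%, against 7.21% and 1.33%). Past both thresholds there were 48, 46 of them higher (23%), against 5.58% of all genes in either direction and 3.35% higher. For 26 loci (13%) all D_B12 libraries were above all D_C libraries, against 3.4% of all genes, and for 1 (0.5%) they were all below, against 3.18%.

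The largest difference was at Gm37101 (chr1:138495435-138499094, minus strand), in an intron of Nek7, which encodes a kinase of the NLRP3 inflammasome. Its normalized counts were 114, 80.8, 79.1 and 71.3 in D_C and 211, 168, 190.3 and 142 in D_B12, with no overlap. The log2 fold change came to 1.04 (SE 0.18, edgeR adjusted p = 0.0703) beside 0.07 for Nek7. Gm37795 gave 1.02 (SE 0.26, edgeR adjusted p = 0.112) and Gm37963, in an intron of the deubiquitinase gene Usp4, 0.98 (SE 0.31, edgeR adjusted p = 0.182).

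Gm37240 was lower in D_B12. It is the protein-coding model among the 200, spans chr3:84403733-85794825 and shares exons with Arfip1, so the split of reads between them is uncertain. It held 297, 269, 409.7 and 537 normalized counts in D_C and 244, 181, 194 and 199 in D_B12. The groups did not overlap, and the log2 fold change came to -0.88 (SE 0.19, edgeR adjusted p = 0.08), with -0.06 for Arfip1. The other locus lower at an unadjusted p below 0.05 was Gm37915, a lncRNA opposite an exon of Mfsd9, at 51.3 ± 27.2 in D_B12 and 86.9 ± 20.3 in D_C (edgeR adjusted p = 0.278).

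D_C 1 weighed on this comparison. Without it, 79 loci passed both thresholds, as did 7.42% of all genes, 4 passed the adjusted one, as did 0.264% of all genes, and the median was 0.45. Without D_C 4, 28 loci and 4.56% of all genes passed both thresholds.

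Between B12-treated and untreated non-diabetic kidneys (ND_B12 and ND_C), the loci leaned lower. A log2 fold change above 0 was found for 24 of the 200, and the median was -0.25 (-0.249 over other TEC loci). None passed the adjusted threshold in edgeR or DESeq2, which called 0% and 0.0236% of all genes, and the smallest adjusted p in edgeR was 0.57. An unadjusted p below 0.05 was found for 32 loci (16%, against 7.62% of all genes). These 32 were lower (16%, against 3.95% of all genes and 10.9% of other TEC loci) and 0 higher (against 3.67% and 0.199%). Past both thresholds there were 15, all lower (7.5%), against 3.19% of all genes in either direction and 2.62% lower.

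The lowest fold change was at Gm37053, in an intron of the apoptosis regulator gene Bcl2. It held 81.1, 59.6, 48.7 and 43.2 normalized counts in ND_C and 25.1, 24.8, 41 and 16.4 in ND_B12, with no overlap (log2 fold change -1.12, SE 0.35, edgeR adjusted p = 0.57). Gm37024, on the opposite strand in an intron of Mecom, a transcription factor gene, gave -0.89 (SE 0.38), and Gm37929, opposite to the nuclear receptor gene Esrrg, gave -0.86 (SE 0.25). Leaving out ND_B12 4 left 7 loci past both thresholds (2.22% of all genes), and leaving out ND_B12 3 raised the number to 31 (3.75% of all genes).

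Between untreated diabetic and untreated non-diabetic kidneys (D_C and ND_C), 69 of the 200 loci (34.5%) had a log2 fold change above 0, against 49.3% of all genes. At an unadjusted p below 0.05, 6 were higher (3%, against 9.31% of all genes and 3.12% of other TEC loci). Lower were 16 (8%, against 9.28% and 7.29%). Past both thresholds there were 16 (8%, against 7.64%), with 5 higher (2.5%, against 3.74%) and 11 lower (5.5%, against 3.9%). All D_C libraries were above all ND_C libraries for 3 loci (1.5%, against 4.86% of all genes) and below them for 6 (3%, against 4.58%). None passed the adjusted threshold in edgeR, where 1.66% of all genes did, and DESeq2 called 4 where it called 6.44% of all genes. The median was -0.12, against -0.003 over all genes and -0.089 over other TEC loci. With the label date as a covariate the median was -0.009, against -0.01 over all genes. The smallest adjusted p by edgeR was 0.0551, at Gm37101, which held 140 ± 20.7 in ND_C and 86.4 ± 19.1 in D_C. Without D_C 1, 35 loci passed both thresholds, as did 2675 of the 25408 genes tested, and 10 passed the adjusted one, as did 6.1% of all genes.

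The extremes of this comparison were variable loci. Gm37913, a TEC locus on chromosome 3 with no named gene, held 20.3, 40.8, 15.9 and 57.6 normalized counts in ND_C and 92.3, 211, 48 and 97.9 in D_C. Its log2 fold change of 1.72 had an SE of 0.77 and the groups overlapped (edgeR adjusted p = 0.241). Gm37269, in an intron of the lipid kinase gene Pik3c2g, held 108, 126, 99.7 and 138 in ND_C and 126, 41.3, 33.8 and 49 in D_C. There D_C 1 lay among the ND_C libraries and the other D_C libraries below them (log2 fold change -0.91, SE 0.34, edgeR adjusted p = 0.156).

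Gm37929 held 83.6 ± 11.6 normalized counts in ND_C, 46.4 ± 17.5 in D_C and 45.7 ± 7.01 in ND_B12 (edgeR adjusted p = 0.0841 and 0.57 against ND_C, whose libraries both comparisons share). In D_B12 it held 81.8 ± 16.2. Gm37946, in an intron of the transcription factor gene Zbtb20 on the opposite strand, held 187 ± 78.8 in ND_C and 105 ± 35 in D_C (log2 fold change -0.83, SE 0.31). Gm37370, in an intron of Ankrd44, held 27.9 ± 11.2 in ND_C and 45.5 ± 14 in D_C (log2 fold change 0.71, SE 0.32).

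Whether the difference with B12 itself differed between diabetic and non-diabetic kidneys was tested as an interaction. It was above 0 for 179 of the 200 loci with a median of 0.61 (0.507 over other TEC loci). At an unadjusted p below 0.05, 78 were higher (39%, against 8.01% of all genes and 24.7% of other TEC loci). Lower were 2 (1%, against 8.1% and 1.06%). After adjustment none passed in edgeR, as for all genes (0%), and the smallest adjusted p was 0.0554, while DESeq2 called 21, where it called 3.71% of all genes. The largest interaction was at Gm37929, at 1.68 (SE 0.35, edgeR adjusted p = 0.0559).

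The most abundant locus did not follow the others. Gm37824 (chr2:13009176-13012411, plus strand) lies opposite an exon of C1ql3, a gene of the C1q family. It averaged 1220 ± 39.7 normalized counts in ND_C, 1180 ± 182 in D_C, 1190 ± 158 in ND_B12 and 1230 ± 98.8 in D_B12, with log2 fold changes between -0.04 and 0.06 (SE 0.11). Gm37296 on chromosome 15, without a named gene, held 471 ± 66.7 in ND_B12 and 539 ± 64.1 in D_B12 (log2 fold change 0.19, SE 0.15). Over the 16 libraries, the genes ranked most like Gm37824 were Gm3355 (Spearman's rho 0.876), Nck1 (0.847), D530017H19Rik (0.812), Gm49203 (0.809) and Gm28230 (0.797), as a description over libraries that share depth and groups.

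Other abundant loci inside introns lay on the side of the majority. Gm37738, in an intron of the ubiquitin ligase gene Trip12, held 411, 365, 339.8 and 357 normalized counts in ND_C and 325, 245, 286 and 238 in ND_B12. It held 305, 301, 214 and 177 in D_C and 489.5, 320.2, 405 and 437 in D_B12. The D_B12 libraries stood above the D_C libraries without overlap, and the log2 fold change came to 0.73 (SE 0.17, edgeR adjusted p = 0.0978), with 0.05 for Trip12. Gm37033 in Itpkb, an inositol phosphate kinase gene, gave 0.60 (SE 0.20) between D_B12 and ND_B12, Gm37084 in the stress kinase gene Mapkapk2 gave 0.58 (SE 0.19), and Gm37589 in the splicing regulator gene Mbnl1 gave 0.33 (SE 0.15).

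Among the rest of the 10 most abundant loci, Gm37570 in an intron of Kansl1l held 597 ± 160, 446 ± 98.3, 410 ± 120 and 607 ± 89.5 normalized counts in ND_C, ND_B12, D_C and D_B12. Gm37403 on chromosome 1, without a named gene, held 519 ± 99.5, 377 ± 83, 369 ± 109 and 577 ± 98.9. Gm37621, opposite an exon of the phosphatase subunit gene Ppp2r3a, held 392 ± 76, 405 ± 45.2, 472 ± 124 and 519 ± 123. Gm37472, which was not in the annotation used here, held 605 ± 112, 428 ± 77.8, 513 ± 53.2 and 560 ± 80.9. By edgeR none of the 10 most abundant loci passed the adjusted threshold in any of the 4 comparisons. For Gm37570 and its host Kansl1l, the log2 fold changes were -0.54 and -0.59 between D_C and ND_C (edgeR adjusted p = 0.0739 for Kansl1l). They were 0.44 and 0 between D_B12 and ND_B12, -0.42 and -0.24 between ND_B12 and ND_C, and 0.57 and 0.35 between D_B12 and D_C.

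Loci inside introns were then set beside the gene that holds them. For 152 loci in an intron on either strand, the median log2 fold change between D_B12 and ND_B12 was 0.52 for the locus and -0.03 for the host, with a median difference of 0.53 and the locus above its host in 140 (92.1%). For D_B12 against D_C the median difference was 0.37 with 136 above the host (89.5%), for ND_B12 against ND_C it was -0.32 with 18 above (11.8%), and for D_C against ND_C -0.17 (-0.165) with 40 above (26.3%). On the same strand alone, all 134 loci had a log2 fold change above 0 between D_B12 and ND_B12, 68 of them at an unadjusted p below 0.05. The host genes thus stayed near 0 as a group while the loci inside them did not. For the 18 loci opposite an exon the median between D_B12 and ND_B12 was 0.16, and for the 17 without a named gene 0.47.

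**Figure D5:**
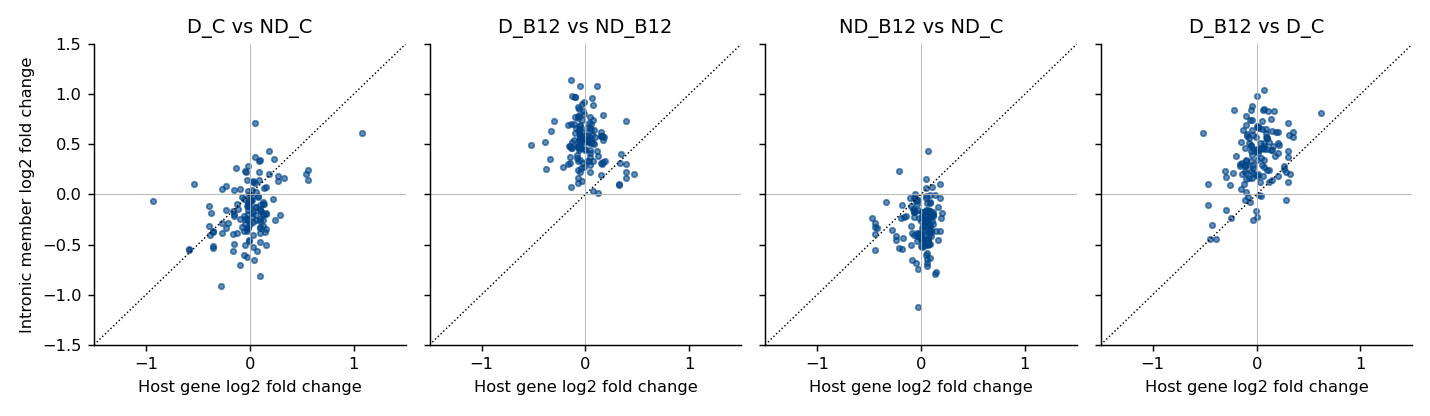
Log2 fold change of each of the 134 loci in an intron on their own strand (vertical axis) against that of the gene that holds it (horizontal axis), with a dotted line where both are equal, in 4 comparisons. For D_B12 against ND_B12 all 134 points lie above 0 and 125 above the line, while for ND_B12 against ND_C 14 lie above the line.

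Per library, the 134 loci held 3.28 ± 0.353 counts for each 100 counts of their 100 hosts in ND_C, 2.87 ± 0.642 in D_C, 2.6 ± 0.399 in ND_B12 and 3.78 ± 0.316 in D_B12. The 4 D_B12 libraries, at 3.38 to 4.15, lay above the 4 ND_B12 libraries, at 2.06 to 3.02. Inside the same hosts, transcripts annotated as retained_intron held 5.57 ± 0.205, 4.52 ± 0.892, 4.89 ± 1.01 and 6.19 ± 0.62 counts for each 100 counts of coding transcripts in ND_C, ND_B12, D_C and D_B12 in turn. Both ratios put the groups in 1 order.

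Loci that share a host could be compared with each other. The 4 inside Tcf12, a transcription factor gene, lay between 0.34 and 0.65 for D_B12 against ND_B12, with Tcf12 at -0.05. In introns of Dennd1b, Gm37423, Gm37470 and Gm37718 gave 0.37, 0.44 and 0.66, and Gm37655, opposite one of its exons, gave 0.20, with Dennd1b at 0.04. The 4 inside Mir99ahg, a long noncoding host of microRNAs, lay between 0.16 and 0.73, and there the host itself stood at 0.39 (SE 0.16, edgeR adjusted p = 0.241).

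Counts per kb of exonic length were compared between each locus and its host. Over the 134 loci the median was 12.5% of the host, with quartiles of 7.15% and 22.3%. The lowest was 1.19%, and 57 loci were below 10%. Cers6 and Nek7 are well expressed in kidney, and Gm37159 and Gm37101 inside them reached 2.2% and 3.09%. Loci denser than their host numbered 7. Gm37138 stood at 2340% of Kcnb2, a potassium channel gene with 19 to 36.7 normalized counts per group on average. The 4 inside Mir99ahg ranged from 134% to 248%, Gm37776 stood at 171% of Lekr1 and Gm37420 at 104% of Dleu2, a long noncoding RNA gene.

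Gm37138 (chr1:15626473-15628561, plus strand) was the locus that most exceeded its host. It held 37.1, 46.7, 42.3 and 52.2 normalized counts in ND_B12 and 86.3, 93.4, 109 and 89.9 in D_B12, without overlap. The log2 fold change came to 1.08 (SE 0.27, edgeR adjusted p = 0.0641), and that of Kcnb2 was 0.11 (SE 0.38).

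Gene groups tied to nuclear RNA were read in the same fit. Of 15 nuclear-retained long noncoding RNAs 14 were tested. Between D_B12 and ND_B12 6 were higher and 0 lower at an unadjusted p below 0.05, where 7.79% of all genes were higher and 9.2% lower. The median was 0.34, and 1 passed the adjusted threshold, against 0.823% of all genes. That 1 was not Malat1, Kcnq1ot1, Neat1 or Meg3. Malat1 gave 0.46 (SE 0.16, edgeR adjusted p = 0.155), Kcnq1ot1 0.47 (SE 0.14, edgeR adjusted p = 0.109) and Neat1 0.23 (SE 0.25, edgeR adjusted p = 0.687). Between ND_B12 and ND_C 6 were lower (against 3.95% of all genes) and 0 higher, with a median of -0.30. Between D_B12 and D_C 4 were higher (against 6.44%), with a median of 0.25, and between D_C and ND_C 1 was lower (against 9.28%), with -0.17. The largest values were those of Meg3 at 0.78 between D_B12 and ND_B12 and Rian at -0.80 between ND_B12 and ND_C, neither past the adjusted threshold.

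Genes that act on nuclear RNA had medians close to 0, with members on both sides. The nuclear exosome degrades unspliced and noncoding RNA, and of its 15 tested subunits and cofactors none passed the adjusted threshold in any of the 4 comparisons, with medians between -0.02 (-0.021) and 0.006. Between D_B12 and ND_B12 1 was higher and 0 lower at an unadjusted p below 0.05, against 7.79% and 9.2% of all genes. The 14 splicing kinases and SR proteins gave medians between -0.06 and 0.06 and 0 adjusted calls. At an unadjusted p below 0.05, 2 of them were lower between D_C and ND_C (14.3%, against 9.28% of all genes), where Srsf7 gave -0.42 (edgeR adjusted p = 0.14). Between D_B12 and ND_B12, 2 were higher and 1 lower, and between D_B12 and D_C 0 passed, with Srsf5 lowest at -0.31 (edgeR adjusted p = 0.396). Pabpn1, the nuclear poly(A)-binding protein gene, had the lowest value of the exosome list between D_C and ND_C, at -0.21 (edgeR adjusted p = 0.107).

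Mitochondrial and cytosolic ribosomal groups gave other values. All 13 mitochondrially encoded mRNAs had a log2 fold change above 0 between D_B12 and D_C, 12 of them at an unadjusted p below 0.05 (92.3%, against 6.44% of all genes) and 0 after adjustment, with a median of 0.26, and between D_B12 and ND_B12 the median was 0.14. Their summed share was lowest in D_C 3, at 8.32%, against 11.3% to 11.7% in D_C 1, 2 and 4. Of 82 cytosolic ribosomal protein genes tested, 17 were lower (20.7%, against 9.2% of all genes) and 0 higher (against 7.79%) at an unadjusted p below 0.05 between D_B12 and ND_B12, with a median of -0.09 and 2 past the adjusted threshold. For the 7138 other predicted loci tested (Gm followed by digits), 12.6% were higher and 2.63% lower in that comparison, with a median of 0.19.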

How the data were processed

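The authors aligned paired 50-base reads from a Watchmaker Total RNA preparation with STAR to GRCm39 and GENCODE vM35, quantified them with StringTie, and deposited an estimated count per gene and per transcript made with prepDE. The submitters' notes also name bcl2fastq 2.20.0, DESeq2 and limma. The deposited values are whole numbers, and they come from read coverage, so reads of an unspliced host also add to a locus in its intron. Total counts were 65271308 to 91771136 per library, and each of the 16 columns was matched to a library by its number.

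The 25408 genes whose summed count reached 100 were fitted in R 4.3.3 with edgeR 4.0.16 (TMM, glmQLFit and glmQLFTest, 1 mean for each group, 12 residual degrees of freedom, two-sided, Benjamini-Hochberg over all genes tested). The common biological coefficient of variation was 0.201. SE is the absolute log2 fold change divided by the root of F. All 200 loci passed the filter. The second threshold, from the study's volcano plots, was an unadjusted p below 0.05 with a log2 fold change of 0.5 or more in size. Library shares were compared by exact permutation tests in scipy 1.17.1. Libraries are labelled as biological replicates.

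Positions, hosts and transcript classes come from GENCODE vM39 on GRCm39. A locus within 5000 bases of a gene's end on its strand was called downstream. The loci and all lists were chosen with earlier results of these data known. Named are the 10 loci with the highest summed count, per comparison up to 3 increases and 3 decreases with the largest fold change at an unadjusted p below 0.05, the loci at the selection edge, their hosts, and members of the lists. Gm37906, Gm37008, Gm37094, Gm37138, Gm37254, Gm37776 and Gm37420, the loci sharing a host, and Kcnq1ot1, Malat1 and Neat1 were named after their values were seen. Alternatives were upper-quartile normalization, DESeq2 1.42.0, no filter, filterByExpr, the compared groups alone, the replicate block, the label date, and each library left out. The fits were tested on simulated data.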

Additional observations from a re-analysis of the deposited data

Results flagged for a closer look

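In groups of 4 libraries, a library counted as far from the others when its gap to the nearest, divided by the range, exceeded Dixon's critical value at 95%. Of 104 groups examined, over 25 named loci and the summed share, 7 met this, where about 5.2 are expected by chance. Among the loci, D_C 1 stood high at Gm37570 (588 normalized counts), Gm37403 (531) and Gm37269 (126), and D_B12 4 at Gm37403 (725) and Gm37913 (187). D_B12 3 stood high at Gm37915 (91.9), and ND_C 4 at Gm37824 (1270 against 1190 to 1199 in the others, a narrow range).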

How the results depend on the processing

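The medians of the 200 loci and the median differences from the hosts kept their sign under all alternatives run. Differences between groups in the summed share kept their sign too. These are raw counts over library totals, so only leaving out a library could change them. With the label date as a covariate, however, the median between D_C and ND_C was -0.009, close to the -0.01 over all genes. In that fit the median rose to 0.746 between D_B12 and ND_B12 and 0.52 between D_B12 and D_C. The median difference from the host rose to 0.842 and 0.552. Adjusted calls were 0 (0.114% of all genes) and 2 (0.803%), and those of the interaction 16 (2.96%). Loci past both thresholds were 6 between D_C and ND_C (5.41% of all genes) and 8 between ND_B12 and ND_C (2.6%). DESeq2 gave 4 adjusted calls for D_C against ND_C (6.44% of all genes) and 32 for D_B12 against ND_B12 (4.68%). It gave 12 for D_B12 against D_C (2.64%) and 21 for the interaction (3.71%). For D_B12 against ND_B12, upper-quartile normalization and no filter each gave 1 adjusted call (0.0708% and 0.0857% of all genes). Over all 355 tested Gm37 rows, 27 (D_C against ND_C) and 30 (ND_B12 against ND_C) passed both thresholds, where 7.64% and 3.19% of all genes did. The causes were not tested.

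With the replicate block, adjusted calls were 1 between D_B12 and ND_B12 (0.0984% of all genes) and 4 for the interaction (0.579%). Libraries with the same replicate number did not deviate together (correlations from -0.183 to 0.168), so they share only a number.

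Leaving out 1 library at a time, adjusted calls ran from 0 to 10 for D_C against ND_C, 0 to 1 for D_B12 against ND_B12, 0 to 4 for D_B12 against D_C and 0 to 12 for the interaction. The values 10, 4 and 12 came without D_C 1, where 6.1%, 0.264% and 1.04% of all genes were called. For D_B12 against ND_B12 the share of all genes called ran from 0% to 1.04%. Loci past both thresholds ran from 9 (without D_C 4) to 35 (without D_C 1) for D_C against ND_C, 42 (without ND_B12 4) to 87 for D_B12 against ND_B12, 7 (without ND_B12 4) to 31 (without ND_B12 3) for ND_B12 against ND_C, and 28 (without D_C 4) to 79 (without D_C 1) for D_B12 against D_C. The median locus held 57.5 to 104 normalized counts per library, which bounds the precision of single loci.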
